A study of Mus musculus with 45 samples.

Results

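Collagen genes were followed through induced pluripotent stem cell (iPSC) lines made from several somatic cell types of the mouse. The set holds every gene whose symbol in the probe annotation is Col, a number, the letter a and a number. This gave 32 of 11807 genes, read by 48 probe sets, in a table of 33 arrays, and 36 of 12394 genes, read by 58 probe sets, in a table of 12 arrays. Col1a2, Col12a1, Col20a1 and Col22a1 were named in the 12-array annotation only. For the 32 genes in both tables, the probe set used was the same in 27.

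The lines came from a secondary reprogramming system, in which somatic cells of animals that already carry the factors are reprogrammed again. They formed 15 groups of 3 clones. From mouse 1 came lines of granulocyte origin (Gra) at passages 4 and 16 and lines of skeletal muscle precursors, or SMP, at passage 6. From mouse 2 came lines of 4 origins, each at passages 4, 10 and 16: fibroblasts of the tail tip (TTF), B cells of the spleen (B), T cells (T) and granulocytes of the bone marrow. No further genotype, strain, age or treatment is given by the labels, and all lines were kept on a feeder layer of irradiated embryonic fibroblasts in medium with serum and LIF, with the feeders removed by preplating before RNA was taken. The 33-array table holds passages 4, 6 and 16 and the 12-array table holds passage 10. The tables were normalized apart on different array platforms, so levels were never set across them. All clones of a comparison came from 1 mouse, so p-values say nothing of how animals vary.

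Collagens are extracellular matrix proteins whose chains wind around each other into a stiff helix. Fibrillar collagens form the cables of skin, bone and tendon, type IV forms the sheet-like network of basement membranes, and type VI forms beaded filaments that link fibrils to basement membranes. FACIT collagens sit on the surface of fibrils, multiplexins (types XV and XVIII) lie at basement membranes, and transmembrane collagens are anchored in the cell surface. Fibroblasts make fibrillar and type VI collagens in bulk, whereas type IV is made early in the embryo and in large amounts by extraembryonic endoderm.

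Promoters of the type VI genes and of the type IV pair Col4a1 and Col4a2 are shown here, from RefSeq with coordinates of GRCm38.p6, each from 250 bases before to 50 bases after the annotated start, 5′ to 3′ on the strand of the gene. Of the 36 genes measured, 27 had such an entry. The first group is the type VI genes, whose chains assemble with each other and which had the 3 largest changes with passage in the mean over the origins of mouse 2. They did not change alike in every origin. Capitals mark the hexamer CCTCCC on either strand (GGGAGG when read on the other), with overlapping matches counted: 7 in Col6a1 (chr10:76725995-76726294, minus strand), 5 in Col6a2 (chr10:76623355-76623654, minus strand) and 2 in Col6a3 (chr1:90843922-90844221, minus strand). Col6a1 and Col6a2 are neighbours on chromosome 10.
Col6a1: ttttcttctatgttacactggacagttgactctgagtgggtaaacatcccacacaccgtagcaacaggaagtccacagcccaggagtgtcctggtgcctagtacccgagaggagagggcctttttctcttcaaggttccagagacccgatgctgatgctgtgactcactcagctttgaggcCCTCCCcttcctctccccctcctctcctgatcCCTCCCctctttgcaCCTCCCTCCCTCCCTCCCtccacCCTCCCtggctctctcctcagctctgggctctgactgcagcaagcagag
Col6a2: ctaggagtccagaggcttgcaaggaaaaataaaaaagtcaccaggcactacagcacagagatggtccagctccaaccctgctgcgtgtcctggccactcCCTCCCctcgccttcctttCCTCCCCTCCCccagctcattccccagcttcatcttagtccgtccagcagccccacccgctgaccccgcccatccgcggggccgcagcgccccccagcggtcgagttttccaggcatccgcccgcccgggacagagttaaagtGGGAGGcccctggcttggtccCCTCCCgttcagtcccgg
Col6a3: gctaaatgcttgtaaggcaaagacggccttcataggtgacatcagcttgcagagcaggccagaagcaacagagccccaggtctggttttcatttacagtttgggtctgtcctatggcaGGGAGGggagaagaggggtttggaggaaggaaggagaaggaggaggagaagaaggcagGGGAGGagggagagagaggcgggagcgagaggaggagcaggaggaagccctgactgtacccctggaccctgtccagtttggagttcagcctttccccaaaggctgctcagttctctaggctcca

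The hexamer CCTCCC was in 42.4% of 32851 mouse promoters of this length, 4 or more matches were in 2.4%, and 5 or more in 1.0%. It was in 22 of the 27 collagen genes, against 12 with CCAAT (37.4% of all promoters), 16 with GGGCGG (35.7%) and 5 with TATAAA (13.6%), each searched on both strands. A collagen gene was counted if any of its promoter entries matched, whereas the percents count single entries, so they are not like for like. These are matches of letters only. The second group is the head-to-head pair Col4a1 (chr8:11312777-11313076, minus strand) and Col4a2 (chr8:11312555-11312854, plus strand), whose values went up and down together between clones. Capitals mark the 78 bases, chr8:11312777-11312854, that the windows of both genes share on opposite strands.
Col4a1: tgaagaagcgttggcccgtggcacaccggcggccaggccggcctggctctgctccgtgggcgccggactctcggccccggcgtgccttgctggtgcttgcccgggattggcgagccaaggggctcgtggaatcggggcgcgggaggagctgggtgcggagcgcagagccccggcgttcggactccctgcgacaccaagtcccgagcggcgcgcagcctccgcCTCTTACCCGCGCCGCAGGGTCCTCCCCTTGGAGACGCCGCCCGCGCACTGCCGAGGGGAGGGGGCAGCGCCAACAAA
Col4a2: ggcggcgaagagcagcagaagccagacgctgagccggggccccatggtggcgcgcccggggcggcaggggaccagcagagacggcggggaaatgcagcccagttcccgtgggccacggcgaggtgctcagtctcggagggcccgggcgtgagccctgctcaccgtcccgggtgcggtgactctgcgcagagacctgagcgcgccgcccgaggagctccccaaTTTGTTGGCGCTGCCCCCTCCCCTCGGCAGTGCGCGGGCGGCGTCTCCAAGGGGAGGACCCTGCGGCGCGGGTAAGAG

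Most collagens were dim. In the 33-array table, 21 of 32 collagens lay below the median of all genes (6.98 on the log2 scale) in every group, and at passage 10 27 of 36 lay below it (7.72). Pluripotency markers averaged 10.97 to 11.47 by group in the 33-array table and 12.49 to 12.59 at passage 10. In the 33-array table, arrays correlated with the rest of their group at r = 0.9564 to 0.9959, with 1 exception. Clone 3 of Gra lines of mouse 2 at passage 16 was at 0.9222. It is named below for several values that depend on it, and it also changed counts of comparisons that do not use its group. At passage 10 the range was 0.9968 to 0.9977. Fibroblast markers other than collagens, 21 genes in the 33-array table, moved with many of the collagens and are given beside them. In bulk RNA, fewer cells of a type and less RNA per cell cannot be told apart.

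**Figure D1:**
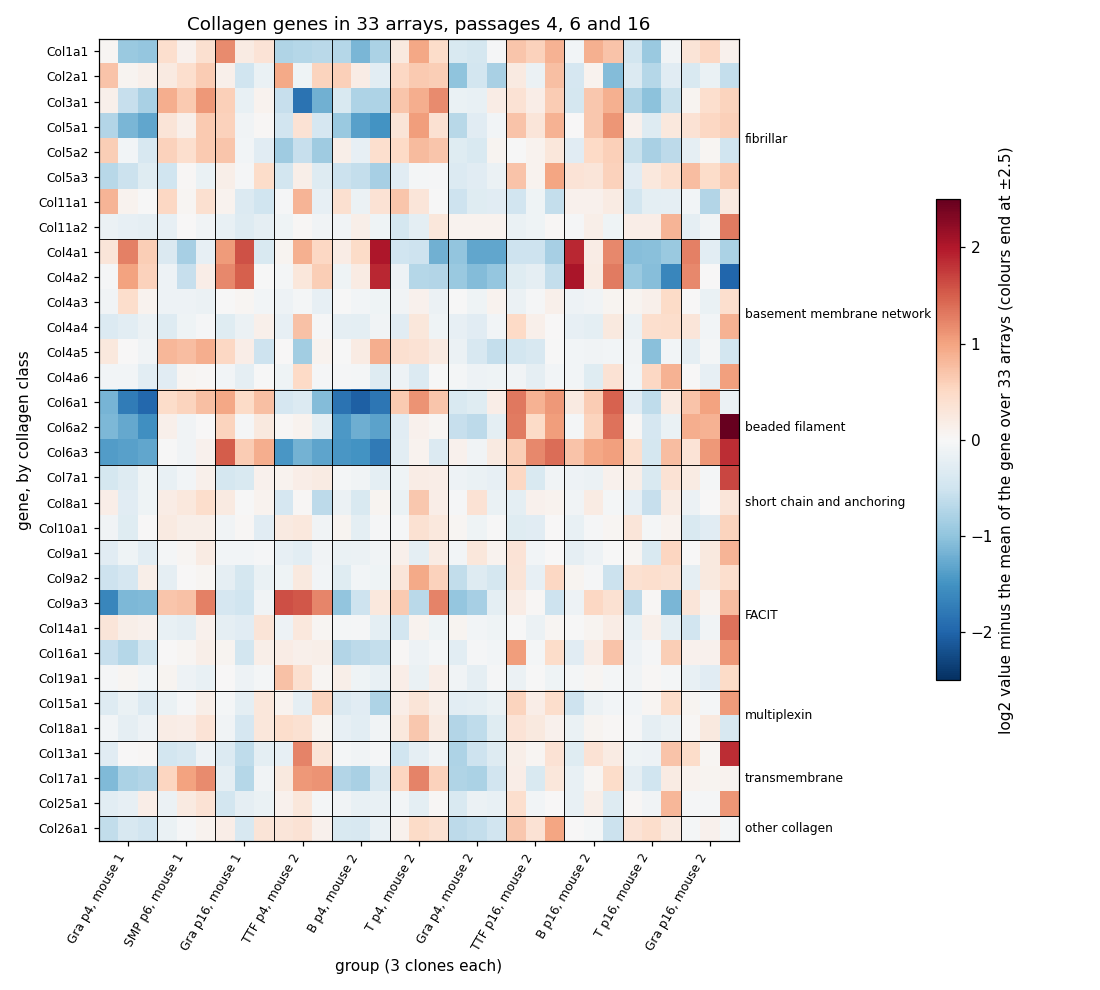
Log2 value of 32 collagen genes in 33 arrays, minus the mean of the gene over the arrays, with genes in rows by class and the 3 clones of each group side by side in columns (colours end at ±2.5). Type VI rows are blue in Gra lines of mouse 1, TTF lines (Col6a3) and B lines at passage 4 and turn red at passage 16. The last column, clone 3 of Gra lines of mouse 2 at passage 16, is red in many rows that are pale elsewhere.

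At passage 4 the origins of mouse 2 differed in 16 of 32 collagens (moderated F-test in limma, Benjamini-Hochberg adjusted p under 0.05 over all genes), where 39.0% of all genes tested were called. All 3 type VI genes, 5 of 8 fibrillar, 2 of 6 type IV, 2 of 6 FACIT, both multiplexins, 1 of 3 transmembrane genes, Col26a1 and none of the 3 short chain and anchoring collagens were among them. The widest spread was in Col6a1, which encodes a chain of the type VI filament. Col6a1 read 7.40, 7.86 and 7.43 in the T clones, 6.35, 6.44 and 6.90 in the Gra clones, 6.32, 6.41 and 5.66 in the TTF clones, and 4.90, 4.70 and 4.94 in the B clones (adjusted p = 9.4e-07). The T clones lay above and the B clones below all others. The contrasts of each origin with the mean of the other 3, given next, share their arrays and are not independent. The later contrasts with passage use the same passage 4 arrays, so they are not independent of these.

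T lines were the high end for fibrillar collagens at passage 4. Against the other origins, 10 of 32 collagens were higher in T lines and 0 lower, where 12.3% of all genes were higher and 6.42% lower. The median collagen difference was 0.30 and that of all genes 0.03. Col3a1, a fibrillar chain of skin and vessels, read 8.75, 8.97 and 9.25 in T clones, 7.89, 7.88 and 8.25 in Gra, 7.67, 7.29 and 7.30 in B and 7.48, 6.21 and 6.86 in TTF clones. The T clones did not overlap any other origin, and the difference was 1.56 ± 0.25 (SE, n = 3 against 9, 2.95-fold, adjusted p = 4.9e-05). Col1a1, the main chain of type I collagen, was higher by 1.18 ± 0.22 (2.26-fold), Col5a1 by 1.17 ± 0.22 and Col5a2, chains of the type V collagen within type I fibrils, by 0.95 ± 0.20. Each of the last 2 rests on 1 probe set, as the other probe sets gave 0.02 and 0.21 for Col5a1 and 0.02 for Col5a2, and with averaged probe sets they were at 0.47 ± 0.18 (adjusted p = 0.068) and 0.49 ± 0.19 (adjusted p = 0.069). For Col3a1 too only 1 of 2 probe sets was called, and the other gave 0.14. Col6a1 was higher by 1.72 ± 0.24 (3.29-fold), Col17a1 by 0.95 ± 0.20, Col9a2 by 0.81 ± 0.17, Col6a3 by 0.77 ± 0.23 and Col18a1 by 0.54 ± 0.14. Without T clone 2 at passage 4, Col6a3 (0.64) and Col18a1 (0.40) were no longer called.

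The mean of the 21 fibroblast markers also was highest in T lines at passage 4, at 7.46 to 7.64 by clone, against 7.09 to 7.23 in Gra, 7.01 to 7.09 in B and 6.98 to 7.12 in TTF lines. Of these markers 8 were higher in T lines and 0 lower, led by Mgp (1.84 ± 0.27) and Acta2 (1.48 ± 0.30). With the marker mean of each array as a covariate, 1 of the 10 collagens stayed called in T lines, Col9a2 (0.97 ± 0.26), and Col3a1 was at 0.76 ± 0.33 (adjusted p = 0.19). All T clones lay above the rest in the marker mean, so that fit cannot fully separate it from origin. The part of feeder or other fibroblast RNA in these lines was not tested beyond that fit.

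B lines were the low end for type VI collagens at passage 4, though not for collagens as a whole. In B lines 7 of 32 collagens were lower and 1 higher (6.34% and 3.80% of all genes). Col6a1 was at −1.91 ± 0.24 (3.75-fold lower, adjusted p = 1.3e-05), Col5a1 at −1.28 ± 0.22, Col6a2 at −1.14 ± 0.28, Col6a3 at −1.10 ± 0.23, Col17a1 at −0.96 ± 0.20, Col1a1 at −0.73 ± 0.22 and Col16a1 at −0.65 ± 0.21. The marker mean of B lines was next to that of TTF lines, and Col6a1 (−1.56 ± 0.22), Col5a1 (−0.90 ± 0.18), Col6a3 (−0.80 ± 0.23) and Col17a1 (−0.86 ± 0.22) stayed called with it as a covariate. Col5a1 rests on 1 of 3 probe sets, which ranged from −1.28 to 0.02. With averaged probe sets Col5a1 (−0.51 ± 0.18, adjusted p = 0.067) and Col6a2 (−0.77 ± 0.25, adjusted p = 0.051) were not called. The count of 8 fell to 4 without B clone 2 and to 5 without B clone 1. Col6a2 was not called without B clone 1 (−1.09) or 2 (−1.20), Col1a1 lost its call in 5 and Col16a1 in 20 of 33 fits that each left out 1 array.

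TTF lines, although made from fibroblasts, did not lead the fibrillar collagens at passage 4. Their calls were mixed, with 5 of 32 higher and 3 lower (11.7% and 7.85% of all genes). Col3a1 was lower at −1.29 ± 0.25 (2.44-fold, adjusted p = 0.00054), Col5a2 at −0.98 ± 0.20 and Col6a3 at −0.77 ± 0.23, whereas Col1a1 (−0.51 ± 0.22, adjusted p = 0.11) and Col5a1 (0.17 ± 0.22, adjusted p = 0.66) did not pass. The genes that were higher lie outside the fibrillar class. Col9a3, a FACIT chain of cartilage, read 7.71, 7.66 and 7.33 in TTF clones, 6.76, 5.43 and 7.36 in T, 5.11, 5.58 and 6.37 in B and 5.14, 5.27 and 5.86 in Gra clones (1.69 ± 0.30, 3.23-fold, adjusted p = 0.00023). The TTF and T clones overlapped, and the B and Gra clones all were lower than the TTF clones. Col17a1, a transmembrane collagen of epithelial attachment, was higher by 1.00 ± 0.20, and Col26a1, Col19a1 and Col18a1 by 0.41 to 0.45. With the fibroblast marker mean as a covariate 5 of the 8 stayed called: Col9a3 (1.41 ± 0.32), Col17a1 (1.12 ± 0.23), Col3a1 (−0.92 ± 0.24), Col5a2 (−0.56 ± 0.16) and Col18a1 (0.48 ± 0.16).
The TTF count of 8 fell to 4 without TTF clone 2 and to 5 without clone 1. Col6a3 lost its call without TTF clone 1 (−0.70), 2 (−0.84) or 3 (−0.77), Col26a1 and Col19a1 without TTF clone 1 (0.43 and 0.26) or 2 (0.40 and 0.42), and Col18a1 in 8 fits.

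Gra lines of mouse 2 had 8 of 32 collagens lower and 1 higher (14.8% and 8.33% of all genes). Those lower were Col4a1 (−1.41 ± 0.40), Col2a1 (−1.17 ± 0.23), Col9a3 (−1.17 ± 0.30), Col17a1 (−0.99 ± 0.20), Col18a1 (−0.72 ± 0.14), Col26a1 (−0.66 ± 0.14), Col9a2 (−0.62 ± 0.17) and Col11a1 (−0.61 ± 0.22). The 1 gene that was higher was Col6a3, at 5.50, 5.30 and 5.62 in Gra clones and 3.61 to 4.20 in B and TTF clones (1.10 ± 0.23). Type VI was thus not low as a whole in these lines, since Col6a1 was the second highest of the origins there. Without Gra clone 1 Col9a2 (−0.54) lost its call, and without Gra clone 2 Col4a1 (−1.36) did.

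**Figure D2:**
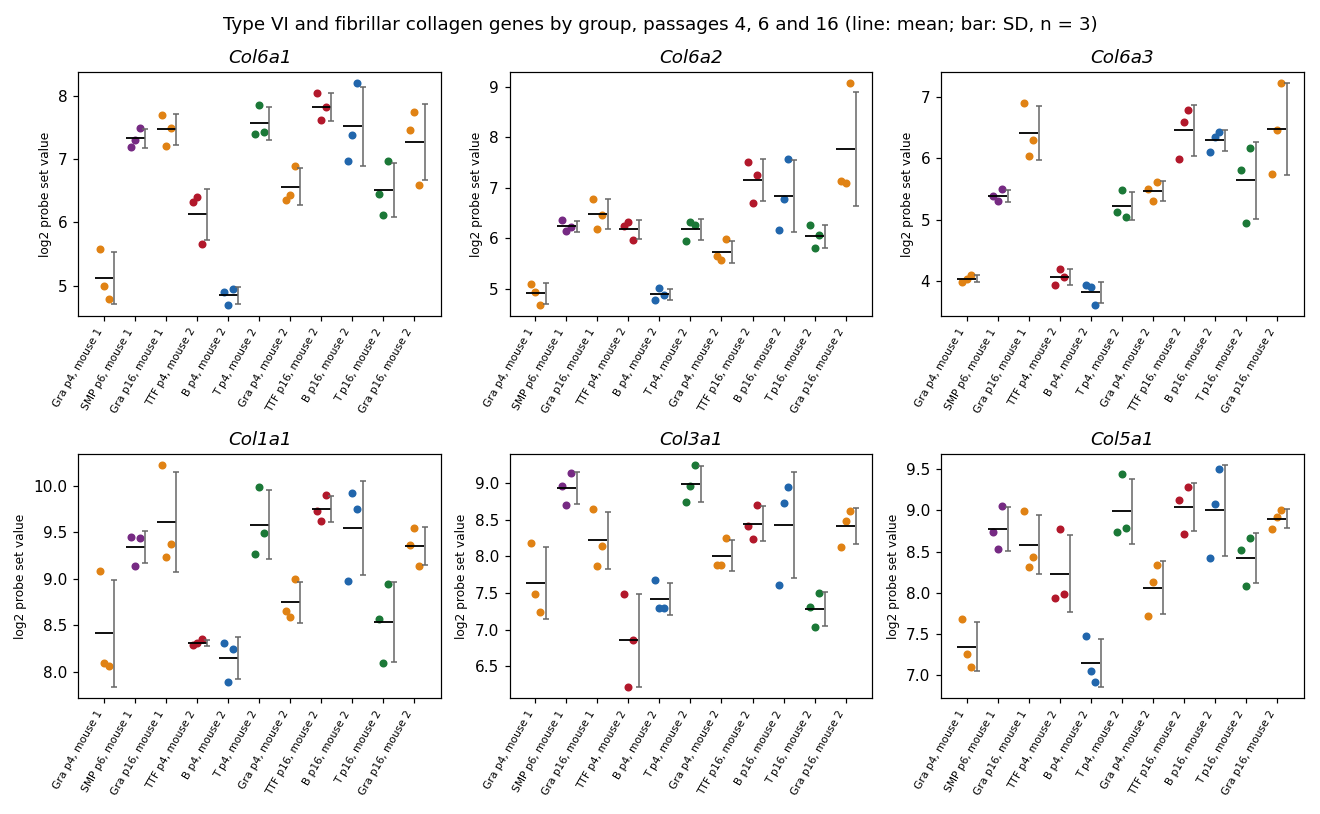
Log2 value of 3 type VI and 3 fibrillar collagen genes in each clone (points) of the 11 groups of the 33-array table, with the mean (line) and SD (bar, n = 3). B clones rise from 4.70 to 4.94 at passage 4 to 6.96 to 8.20 at passage 16 for Col6a1, and T clones fall from 8.75 to 9.25 to 7.04 to 7.50 for Col3a1.

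Type VI collagens rose with passage. Over the 4 origins of mouse 2, 8 of 32 collagens were higher at passage 16 than at passage 4 and 1 was lower (16.6% and 12.4% of all genes). After quantile normalization of the deposited values the split was 7 higher and 3 lower. The type VI median was 1.21, against 0.16 for all collagens and 0.07 for all genes. Col6a3 rose by 1.58 ± 0.14 (2.98-fold, adjusted p = 2.1e-08), Col6a2 by 1.21 ± 0.17 and Col6a1 by 1.01 ± 0.15, and with the fibroblast marker mean as a covariate the values were 1.21 ± 0.17, 0.95 ± 0.23 and 0.58 ± 0.17, all called. Col5a3 rose by 0.75 ± 0.10, Col5a1 by 0.73 ± 0.14, Col1a1 by 0.60 ± 0.14 and Col16a1, a FACIT chain, by 0.49 ± 0.13. Col2a1, the fibrillar chain of cartilage, fell by 0.38 ± 0.14 on the log2 scale and lost its call in 13 of 33 fits that left out 1 array.

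The mean over origins hid different changes, and the test of the difference between the 4 origins called 13 of 32 collagens (32.8% of all genes). At an unadjusted p under 0.05 the share was 40.6% of collagens and 44.5% of all genes, so collagens did not stand out there. By its median, type VI rose most in B lines (2.48, against 1.70 in TTF, 1.01 in Gra and −0.14 in T lines of mouse 2). This did not hold for each gene, since Col6a2 rose by 2.04 in Gra lines with all arrays. In B lines Col6a1 read 4.90, 4.70 and 4.94 at passage 4 and 6.96, 7.38 and 8.20 at passage 16, with no overlap. The change was 2.67 ± 0.29 (6.37-fold, adjusted p = 3.8e-06). Col6a3 went from 3.93, 3.90 and 3.61 to 6.10, 6.35 and 6.42 (2.48 ± 0.28, 5.56-fold) and Col6a2 from 4.78, 5.01 and 4.88 to 6.17, 6.77 and 7.58 (1.95 ± 0.35, 3.87-fold). In all, 8 of 32 collagens rose in B lines and 0 fell (5.51% and 2.49% of all genes). The others were Col5a1 (1.85 ± 0.27), Col1a1 (1.40 ± 0.27), Col5a3 (1.06 ± 0.21), Col3a1 (1.01 ± 0.30) and Col16a1 (0.86 ± 0.26). Col3a1 lost its call without B clone 1 (1.13), 2 (0.95) or 3 (0.95) of passage 4 and without clone 2 (0.86) or 3 (0.75) of passage 16, and Col16a1 in 5 fits.

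TTF lines had 7 of 32 collagens higher and 2 lower at passage 16 (5.76% and 6.43% of all genes). Col6a3 read 3.93, 4.20 and 4.06 at passage 4 and 5.99, 6.59 and 6.79 at passage 16 (2.40 ± 0.28, 5.26-fold, adjusted p = 3.1e-06). Col6a1 rose by 1.70 ± 0.29, and Col6a2 was at 0.98 ± 0.35 (adjusted p = 0.064). The fibrillar genes rose beside them, with Col3a1 at 1.60 ± 0.30 (3.02-fold), Col1a1 at 1.43 ± 0.27, Col5a2 at 0.91 ± 0.25, Col5a3 at 0.81 ± 0.21 and Col5a1 at 0.81 ± 0.27. Col3a1 and Col5a2 each rest on 1 of 2 probe sets, as the other gave 0.01 and 0.14. None of the 3 probe sets of Col5a1 was called when each was fitted on its own. Col9a3 fell by 1.56 ± 0.36 and Col17a1 fell by 0.80 ± 0.25. Both were among the 5 collagens that had been higher in TTF lines at passage 4, a result from the same passage 4 arrays and so not independent. Col5a1 lost its call in 22 of 33 fits that left out 1 array, Col5a2 without clone 3 of passage 4 (0.86) or 16 (0.83), and Col5a3 without clone 3 of passage 16 (0.62).

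T lines went the other way. None of the 32 collagens rose and 7 fell (7.49% and 10.4% of all genes), or 1 and 8 after quantile normalization. The fibrillar median was −0.84 against 0.05 for all genes. Col3a1 read 8.75, 8.97 and 9.25 at passage 4 and 7.31, 7.04 and 7.50 at passage 16, a change of −1.71 ± 0.30 (3.27-fold lower, adjusted p = 0.00025). Col5a2 fell by 1.33 ± 0.25, Col6a1 by 1.06 ± 0.29, Col2a1 by 1.05 ± 0.28, Col1a1 by 1.05 ± 0.27, Col17a1 by 0.96 ± 0.25 and Col18a1 by 0.52 ± 0.17. Col6a3 (0.42 ± 0.28, adjusted p = 0.33) and Col6a2 (−0.14 ± 0.35, adjusted p = 0.82) did not pass in either direction. The count of 7 fell to 4 without T clone 2 of passage 4, where Col6a1 was at −0.91, Col1a1 at −0.84, Col17a1 at −0.73 and Col18a1 at −0.38. Col6a1 (−0.86) and Col1a1 (−0.82) also lost their calls without T clone 2 of passage 16, and Col18a1 without T clone 2 (−0.48) or 3 (−0.52) of passage 16. The count rose to 11 without Gra clone 3 of passage 16.

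Gra lines of mouse 2 had 13 of 32 collagens higher at passage 16 and 0 lower (22.0% and 14.0% of all genes), or 9 and 0 after quantile normalization. The median difference was 0.56 for collagens and 0.21 for all genes. Other markers moved with them: 0 of 11 pluripotency markers were higher and 6 lower (mean from 11.47 ± 0.02 to 10.97 ± 0.52, SD, n = 3), and 7 of 16 endoderm markers were higher and 1 lower (6.04 ± 0.13 to 6.87 ± 0.56). Their part in the collagen values was not tested. Col6a2 read 5.65, 5.56 and 5.98 at passage 4 and 7.13, 7.10 and 9.08 at passage 16 (2.04 ± 0.35, 4.12-fold), with the highest value in the array that stood apart. Without that array Col6a2 rose by 1.39 ± 0.27 (adjusted p = 0.00065) and the count was 7. It was 5 without clone 1 of passage 4 and 7 without clone 2. Col13a1, a transmembrane collagen, was at 1.32 ± 0.33 with all arrays and at 0.79 ± 0.28 (adjusted p = 0.05, not called) without the array, and Col7a1, which forms anchoring fibrils of skin, went from 0.77 ± 0.28 to 0.24 ± 0.21. Col6a3 went from 1.01 ± 0.28 to 0.63 ± 0.27, Col9a3 from 1.07 ± 0.36 to 0.88 ± 0.40, Col15a1 from 0.58 ± 0.23 to 0.23 ± 0.20 and Col5a1 from 0.84 ± 0.27 to 0.78 ± 0.30, none called without it. Col5a3, a further type V chain (0.89 ± 0.21 and 0.88 ± 0.23), Col18a1 (0.51 ± 0.17 and 0.70 ± 0.17) and Col4a1 (1.26 ± 0.49 and 1.69 ± 0.51) were called both ways. Without Gra clone 1 of passage 4, Col4a1 (1.36), Col9a3 (0.93), Col5a1 (0.66), Col7a1 (0.79) and Col18a1 (0.43) were not called, and without clone 2 Col4a1 (1.21), Col9a3 (0.99), Col7a1 (0.77) and Col18a1 (0.48) were not. Clone 3 of passage 4 decided Col4a1 (1.21 without it) and Col7a1 (0.75), clone 1 of passage 16 Col4a1 (0.67) and clone 2 of passage 16 Col18a1 (0.37). Col15a1 lost its call in 20 of 33 fits. With the clone number as a replicate block, a pairing that the labels do not give, Col15a1 (0.58 ± 0.23, adjusted p = 0.062) and Col18a1 (0.51 ± 0.19, adjusted p = 0.053) were not called. Col6a1 was at 0.70 ± 0.29 (adjusted p = 0.059), with clone 3 of passage 16 at 6.59 within the 6.35 to 6.90 of passage 4.

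In mouse 1, type VI also rose in Gra lines, from a lower start, but not gene by gene as in mouse 2. In mouse 2 Col6a1 was not called, and Col6a3 was not called without the array that stood apart. Of 32 collagens 5 rose and 0 fell (0.855% and 0.288% of all genes). Col6a1 read 5.57, 4.99 and 4.78 at passage 4 and 7.71, 7.21 and 7.50 at passage 16 (2.36 ± 0.29, 5.13-fold, adjusted p = 4.6e-05). Col6a3 went from 3.99, 4.04 and 4.10 to 6.90, 6.03 and 6.30 (2.37 ± 0.28, 5.17-fold, adjusted p = 3.6e-05), and the clones did not overlap for either gene. Col6a2 rose by 1.57 ± 0.35, Col5a1 by 1.23 ± 0.27 and Col1a1 by 1.19 ± 0.27, and these calls were lost without clone 2 or 3 of passage 4 or clone 1 of passage 16 (Col6a2 1.59, 1.46 and 1.42, Col5a1 1.19, 1.11 and 1.03, Col1a1 1.03, 1.02 and 0.88), which left 2 called. Col6a2 was also not called without clone 3 of passage 16 (1.58). With the replicate block 3 of the 5 were called, without Col5a1 (adjusted p = 0.087) and Col1a1 (adjusted p = 0.052).

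The passage change of Gra lines differed between the mice in 2 of 32 collagens (3.63% of all genes). For Col6a1 the change was smaller in mouse 2 than in mouse 1 (difference −1.65 ± 0.41, adjusted p = 0.025), and for Col13a1 it was larger (1.64 ± 0.46, adjusted p = 0.046). With the replicate block 0 were called (Col6a1 adjusted p = 0.062, Col13a1 adjusted p = 0.054). With quantile normalization 1 gene was called, Col6a1. The count was 0 without Gra clones 2 or 3 of passage 4 or clone 1 of passage 16 of mouse 1 or Gra clone 2 of passage 4 of mouse 2, and 1 in 14 other fits that each left out 1 array. Without the array that stood apart, Col6a1 was at −1.32 (adjusted p = 0.074) and Col13a1 at 1.11 (adjusted p = 0.13).

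**Figure D3:**
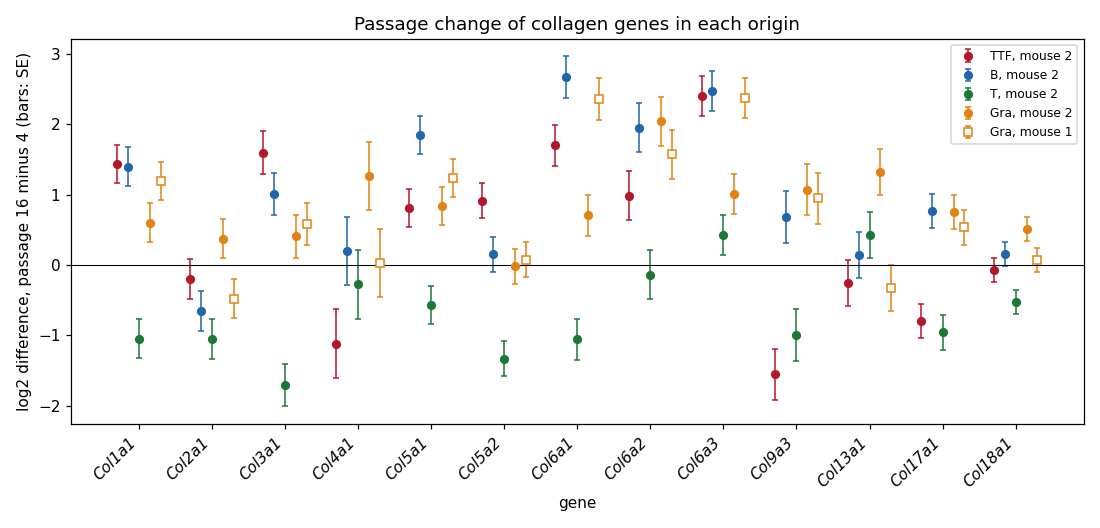
Log2 difference of passage 16 minus passage 4 (points, with SE bars) in each origin for the 13 collagens whose change differed between the origins of mouse 2, with Gra lines of mouse 1 as open squares. For Col1a1, Col3a1 and Col6a1 the T lines are below 0 and the other origins above, and for Col9a3 the T and TTF lines are below 0.

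Fibroblast markers moved the same way as these collagens with passage. From passage 4 to 16 their mean went from 7.04 ± 0.07 to 7.52 ± 0.08 (SD, n = 3) in TTF, from 7.06 ± 0.04 to 7.58 ± 0.11 in B, from 7.15 ± 0.07 to 7.47 ± 0.09 in Gra lines of mouse 2 and from 7.16 ± 0.25 to 7.62 ± 0.16 in Gra lines of mouse 1. It went from 7.57 ± 0.09 down to 7.19 ± 0.19 in T lines. In each of these origins the clones of passages 4 and 16 did not overlap in this mean, so a covariate fit cannot fully separate it from passage. The list did not move as a whole, since Mgp, a matrix protein of cartilage and vessel wall, fell by 2.68 ± 0.17 over the origins while S100a4 rose by 1.54 ± 0.14. With the marker mean as a covariate, the collagens called numbered 2 of 32 in TTF, 2 in B, 3 in T, 7 in Gra lines of mouse 2, 2 in Gra lines of mouse 1 and 5 for the difference between origins. Col6a3 stayed called in TTF (1.66 ± 0.35), B (1.67 ± 0.36) and Gra lines of mouse 1 (1.67 ± 0.34), as did Col6a1 in B (1.73 ± 0.35) and Gra lines of mouse 1 (1.54 ± 0.33) and Col3a1 in T lines (−1.10 ± 0.33).

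At passage 16 the test across origins called 2 of 32 collagens (1.52% of all genes). Col6a2 was highest in Gra lines, at 7.13, 7.10 and 9.08, and lowest in T lines, at 6.26, 5.80 and 6.06 (adjusted p = 0.035). The 9.08 is the array that stands apart, and without it the Gra mean was 7.11 beside 7.16 in TTF lines, so the top rank of Gra lines rests on that array. Col26a1 was highest in TTF lines, at 5.15, 4.82 and 5.46, and lowest in B lines, at 4.47, 4.41 and 3.94 (adjusted p = 0.024). At an unadjusted p under 0.05 there were 11 (34.4%, against 21% of all genes). The count depended on single arrays. It was 9 without Gra clone 2, 8 without Gra clone 1, 6 without Gra clone 3 or B clone 1, and 4 without B clone 2 of passage 16. It was 5 without Gra clone 1 of mouse 1 at passage 4, 4 without TTF clone 2 or B clone 3 of passage 4, and 1 without TTF clones 1 or 3 or T clones 1 or 2 of passage 16.

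Col4a1, a chain of the type IV network, was high in B and TTF lines at passage 4 and varied between the clones of some groups. It read 9.55, 9.85 and 11.40 in B clones at passage 4, 9.45, 10.27 and 9.90 in TTF, 8.88, 8.86 and 8.17 in T and 8.38, 8.07 and 8.08 in Gra clones. All B and TTF clones lay above all T and Gra clones. B lines were higher by 1.37 ± 0.40 (2.59-fold, adjusted p = 0.026), but not called without B clone 2 (1.58) or clone 3 (0.81). Col4a2 ran beside it, at 8.94, 9.26 and 10.92 in the same B clones, and passed no test in either table (B against the others 1.07 ± 0.45, adjusted p = 0.14). At passage 16, Col4a1 read 11.25, 9.57 and 10.58 in B and 10.63, 9.11 and 8.59 in Gra clones of mouse 2, and Col4a2 11.10, 9.26 and 10.34 and then 10.26, 9.05 and 7.07. The T clones read 8.31, 8.33 and 8.44 for Col4a1. The SD of Col4a1 over the 3 clones at passage 16 was 1.06 in Gra and 0.85 in B lines against 0.07 in T lines.

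**Figure D4:**
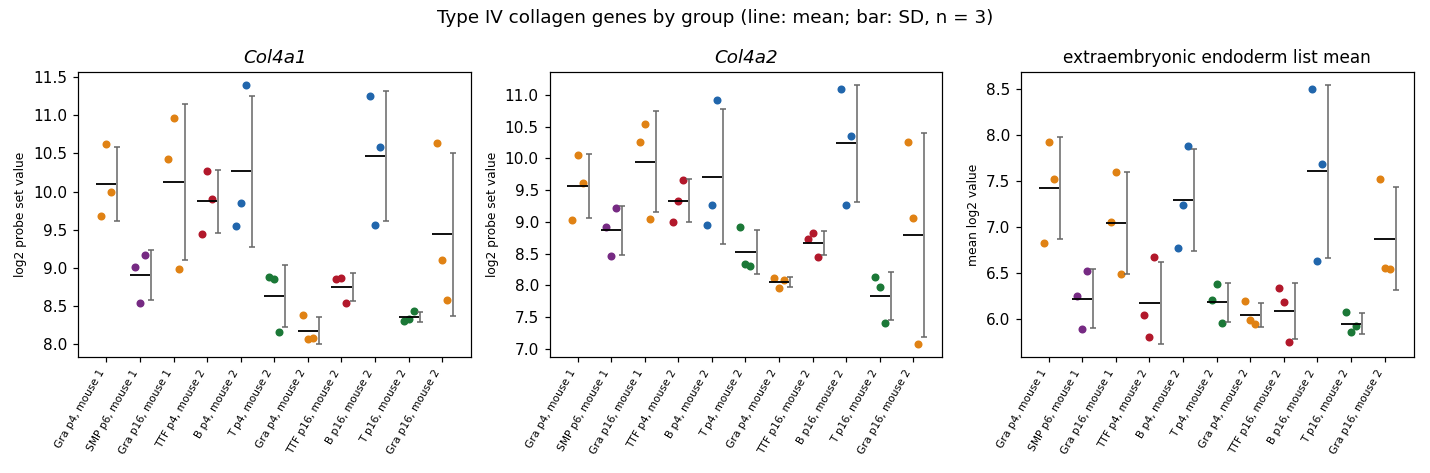
Log2 value of Col4a1 and Col4a2 and the mean log2 value of 16 extraembryonic endoderm markers in each clone (points) of the 11 groups, with the mean (line) and SD (bar, n = 3). Both genes and the marker mean spread most widely among the B clones and the Gra clones of both mice, except Gra clones of mouse 2 at passage 4.

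Markers of extraembryonic endoderm, the embryonic lineage that lays down type IV collagen, were high in some of these groups but not in TTF lines. The mean of 16 markers ran from 6.77 to 7.88 in B clones at passage 4 and from 6.62 to 8.50 at passage 16, from 6.83 to 7.92 and 6.48 to 7.59 in Gra clones of mouse 1, and from 6.54 to 7.52 in Gra clones of mouse 2 at passage 16. In TTF clones at passage 4, where Col4a1 was 9.45 to 10.27, the marker mean was 5.80 to 6.67, near that of T clones. In T clones it ran from 5.95 to 6.37 at passage 4 and from 5.85 to 6.07 at passage 16. Of the 16 markers, 9 were higher in B lines at passage 4 and 1 lower, led by Srgn (2.95 ± 0.70), Cubn (2.94 ± 0.53) and Dab2 (2.80 ± 0.62). The part of such cells in the type IV values was not tested. The other type IV genes were dim: Col4a3, Col4a4 and Col4a6 had group means between 2.93 and 4.55 and passed no test in either table, and Col4a5 was called in the test across origins at passage 4 (adjusted p = 0.04), highest in B (5.16 ± 0.48) and lowest in Gra lines (4.42 ± 0.23).

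SMP lines of mouse 1 at passage 6 were set against Gra lines of the same mouse at passage 4, where origin and passage differ together. Of 32 collagens 9 were higher in SMP lines and 0 lower (11.6% and 10.1% of all genes), or 8 and 1 after quantile normalization. Col6a1 read 7.19, 7.30 and 7.49 in SMP clones and 5.57, 4.99 and 4.78 in Gra clones (2.21 ± 0.29, 4.64-fold, adjusted p = 4.8e-06). Col9a3 read 6.80, 6.84 and 7.38 against 4.48, 4.98 and 5.004 (2.18 ± 0.36, 4.54-fold) and Col17a1 5.67, 6.14 and 6.32 against 4.03, 4.35 and 4.40 (1.78 ± 0.25, 3.44-fold). The clones did not overlap for any of the 3. Col5a1 (1.42 ± 0.27), Col6a3 (1.35 ± 0.28), Col6a2 (1.33 ± 0.35), Col3a1 (1.30 ± 0.30) and Col1a1 (0.93 ± 0.27) followed, and Col1a1 was not called without Gra clone 2 (0.77) or 3 (0.75) or SMP clone 3 (0.88). The fibroblast marker mean was 7.51 to 7.76 in SMP and 6.97 to 7.44 in Gra clones. With it as a covariate Col6a1 (1.34 ± 0.34), Col9a3 (2.80 ± 0.49) and Col17a1 (1.53 ± 0.35) stayed called and Col1a1 was at −0.15 ± 0.25. The endoderm marker mean was lower in SMP lines, at 5.89 to 6.52 against 6.83 to 7.92, and Col4a1 was at −1.19 ± 0.49 (adjusted p = 0.083).

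At passage 10, measured on the other platform, the origins differed in 17 of 36 collagens (32.2% of all genes). These included 8 of 9 fibrillar genes, all 3 of type VI, 3 of 9 FACIT, 1 of 6 type IV, 1 of 3 short chain and 1 of 3 transmembrane genes. The order was TTF high and Gra low, with B and T lines between. TTF lines had 12 collagens higher and 0 lower (5.30% and 8.46% of all genes), and Gra lines had 13 lower and 3 higher (17.2% and 21.1%). Col5a2 read 11.20, 11.58 and 11.43 in TTF, 10.99, 10.31 and 10.17 in B, 10.65, 9.82 and 10.86 in T and 9.13, 9.24 and 8.91 in Gra clones. All TTF clones lay above and all Gra clones below the rest, and B and T clones overlapped. The differences from the other origins, which share arrays, were 1.39 ± 0.21 for TTF (2.62-fold, adjusted p = 0.0032) and −1.69 ± 0.21 for Gra lines (3.22-fold lower, adjusted p = 8.5e-05).

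**Figure D5:**
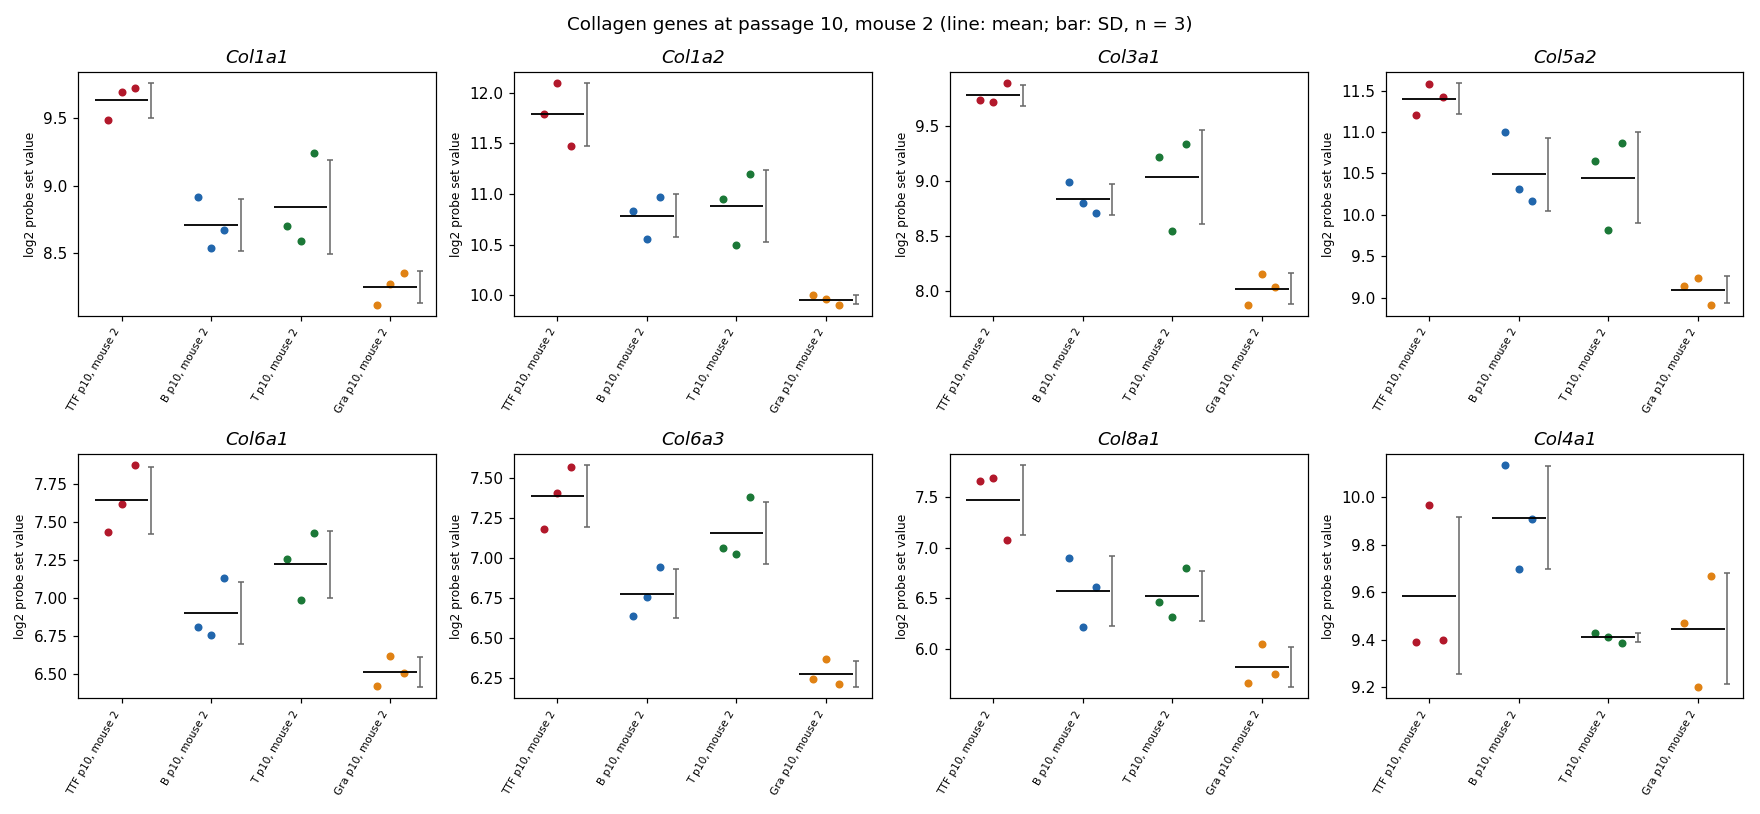
Log2 value of 8 collagen genes in each clone (points) of the 4 origins at passage 10, with the mean (line) and SD (bar, n = 3). TTF clones are highest and Gra clones lowest for Col1a1, Col1a2, Col3a1 and Col5a2, whereas Col4a1 is between 9.20 and 10.14 in all clones with overlap between origins.

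Both chains of type I collagen had that order. Col1a2 read 11.79, 12.09 and 11.47 in TTF, 10.83, 10.56 and 10.97 in B, 10.95, 10.50 and 11.19 in T and 9.96 ± 0.05 (mean ± SD, n = 3) in Gra clones, with differences of 1.24 ± 0.15 for TTF and −1.20 ± 0.15 for Gra lines. Col1a1 gave 1.04 ± 0.12 and −0.82 ± 0.12, and Col3a1 1.15 ± 0.14 and −1.19 ± 0.14. Col8a1, a short chain collagen of vessels and cornea, gave 1.16 ± 0.16 and −1.03 ± 0.16. Type VI moved less, with Col6a1 at 0.76 ± 0.11 and −0.74 ± 0.11, Col6a3 at 0.65 ± 0.10 and −0.83 ± 0.10 and Col6a2 at 0.55 ± 0.10 and −0.37 ± 0.10. Col4a5 gave 0.75 ± 0.15 and −0.77 ± 0.15, Col5a1 0.48 ± 0.09 and −0.47 ± 0.09, and Col15a1 −0.35 ± 0.12 in Gra lines. The 3 genes higher in Gra lines were Col9a2 (0.58 ± 0.10), Col9a3 (0.42 ± 0.06) and Col13a1 (0.39 ± 0.07), none of them fibrillar. Without Gra clone 1 Col6a2 (−0.24) and Col15a1 (−0.22) were not called in Gra lines, Col15a1 lost its call in 8 of 12 fits, and without TTF clone 2 Col4a5 (0.60) was not called in TTF lines.

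B and T lines had 0 of 36 collagens called at passage 10 in limma, where 0.0645% and 0.0242% of all genes were called. At an unadjusted p under 0.05 the counts were 6 (16.7%, against 11.7% of all genes) and 7 (19.4%, against 17.2%). The T count was 3 without Gra clone 1 and 1 without T clone 2. Fibroblast markers, 23 genes in this table, averaged 9.10 to 9.23 in TTF, 8.63 to 8.79 in B, 8.60 to 8.96 in T and 8.34 to 8.40 in Gra clones, the same order as the fibrillar genes. With this mean as a covariate 1 collagen was called in the test across origins and 0 in TTF and in Gra lines, where Col5a2 was at −0.32 ± 0.33 and −0.10 ± 0.31. All TTF clones lay above and all Gra clones below the rest in this mean, so the fit cannot fully separate it from origin. Of the 23 markers, 15 were higher in TTF lines, and in Gra lines 13 were lower and 1 higher, led by Cd44 (−1.82 ± 0.23) and S100a4 (−1.81 ± 0.24).

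Genes that act on collagens were read from lists of related function. These share members with the fibroblast list (Loxl1, Mmp2, Timp1, Fap and Sparc). Beside the counts with passage stand 16.6% of all genes higher and 12.4% lower, and several lists were near these shares. Of 10 genes of processing and cross-linking, 3 rose and 2 fell with passage over the origins of mouse 2. Loxl2 (0.94 ± 0.12) and Loxl3 (0.90 ± 0.11), which cross-link collagen chains, rose while Lox, of the same enzyme family, fell by 1.12 ± 0.22. Of 16 genes of folding and modification, 3 rose and 1 fell, among them Serpinh1, the collagen chaperone of the endoplasmic reticulum (0.59 ± 0.13). Of 7 collagen receptors 2 rose and 1 fell, of 13 genes of degradation 4 rose and 0 fell, of 12 basement membrane partners 1 rose and 3 fell, and of 14 genes of TGF-beta signalling, a known driver of collagen expression, 1 rose and 4 fell. Loxl3 rose in TTF (1.05 ± 0.21), B (1.82 ± 0.21) and Gra lines of both mice (1.40 ± 0.21 and 1.55 ± 0.21) and fell by 0.67 ± 0.21 in T lines. The enzymes and receptors named for these lists, other than Lox with passage and Timp3 at passage 10, were chosen after their values were seen.

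At passage 10 the machinery split, beside 21.1% of all genes higher and 17.2% lower in Gra lines and 5.30% and 8.46% in TTF lines. In Gra lines 6 of 17 folding genes were higher and 3 lower, led by P4ha2 (1.11 ± 0.13) and P4ha1 (1.08 ± 0.10), the prolyl hydroxylases that stabilise the helix, while 13 of 36 collagens were lower, 3 higher and the rest not called. Of 9 processing and cross-linking genes 5 were lower and 0 higher, with Lox at −1.20 ± 0.15. Of 14 degradation genes 6 were lower and 2 higher, with the inhibitor Timp3 at −1.71 ± 0.17. Of 15 basement membrane partners 9 were higher and 1 lower, among them Nid2 (0.48 ± 0.08) and the laminin chain Lama1 (0.38 ± 0.08), though Col4a1 (−0.19 ± 0.13) and Col4a2 (−0.08 ± 0.12) did not pass. Of 7 receptors 1 was higher and 1 lower, and of 16 TGF-beta genes 3 were higher and 7 lower. In TTF lines 5 of 9 cross-linking and 7 of 14 degradation genes were higher and none lower, and of 17 folding genes 2 were higher and 3 lower, P4ha2 (−0.74 ± 0.13), P4ha1 (−0.55 ± 0.10) and Plod2 (−0.51 ± 0.11).

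The remaining collagens passed no test. In the 33-array table these were 10 of 32, Col4a2, Col4a3, Col4a4, Col4a6, Col8a1, Col9a1, Col10a1, Col11a2, Col14a1 and Col25a1, and except for Col4a2 their group means lay between 2.93 and 5.77. At passage 10 they were 18 of 36, among them Col18a1, which was bright and even at 10.36 to 10.65 over all 12 clones, and Col12a1, at 6.19 to 6.70. Where a collagen called in a contrast had several probe sets, these moved in 1 direction in 53 of 63 cases, and all were called in 25. They disagreed for Col3a1 (TTF at passage 4, from −1.29 to 0.05, and SMP against Gra, from −0.17 to 1.30) and for Col5a1 (B at passage 4, from −1.28 to 0.02, B with passage, from −0.39 to 1.85, and SMP against Gra, from −0.21 to 1.42). They also disagreed for Col5a3 (passage over the origins, from −0.02 to 0.75, and in TTF, from −0.22 to 0.81), Col5a2 (T with passage, from −1.33 to 0.03), Col18a1 (T with passage, from −0.52 to 0.31) and Col9a3 (Gra at passage 10, from −0.08 to 0.90). With averaged probe sets, 14 of 110 named values lost their call. Beside Col5a1 and Col5a2 in T lines at passage 4 these were Col19a1 in TTF (0.26), Col5a1 (−0.51) and Col6a2 (−0.77) in B and Col18a1 in T lines (0.32) at that passage. With passage they were Col5a2 (0.53), Col5a3 (0.30) and Col5a1 (0.56) in TTF, Col3a1 in B (0.68), Col18a1 in T (−0.11) and Col5a1 in Gra lines of mouse 1 (0.56), and in SMP against Gra lines Col5a1 (0.39) and Col3a1 (0.57). For Col6a2, the only type VI gene with several probe sets among these, both rose with passage over the origins (0.69 and 1.21).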

How the data were processed

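The authors deposited log2 probe set values; RMA is named in the submitters' processing notes, with settings and version not given in the sources used here. The values ran from 2.26 to 14.1 in the 33-array table and from 2.73 to 15.3 in the 12-array table. Probe sets paired with 1 symbol were used (18003 and 20393 of 22690), and the brightest by mean stood for its gene, with no filter on dim genes. Each table was fitted in limma 3.58.1 (R 4.3.3) with 1 mean per group, moderated across genes, and p-values were adjusted by Benjamini-Hochberg over all genes, with calls at 0.05. Errors are standard errors of the model unless SD is named. Folds are powers of the log2 difference. Figures were drawn with matplotlib 3.10.9.

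The collagen set, classes and other lists were chosen with earlier results of these data known. Named genes were 12 chosen collagens, up to 8 called collagens per comparison by size of change, and up to 4 called genes of the other lists, unless a sentence says otherwise. The fit was checked on simulated data with independent noise and, for each gene, the same spread in every group. That check does not bear on p-values where the groups differ in spread. Labels give no batch, so a batch that coincides with a group cannot be told apart from it, and the number of arrays limits the precision. Alternatives were quantile normalization, averaged probe sets per gene, only genes above the table median, a replicate block, a covariate (each array's mean over the fibroblast list), and leaving out each array. Same-numbered clones of passages 4 and 16 deviated together in Gra lines of mouse 1 (r 0.169 to 0.384) and mouse 2 (r 0.199 to 0.311), so numbers may pair those arrays. The labels do not say so, and differently numbered clones were not compared. The r was below 0 in TTF lines (−0.317 to −0.0772) and mixed in B (−0.181 to 0.132) and T lines (−0.155 to 0.41).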

Additional observations from a re-analysis of the deposited data

Results flagged for a closer look

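The passage change differed between the 4 origins of mouse 2 for 13 collagens, by limma's F-test of the difference itself, where 32.8% of all genes tested were called. At an unadjusted p under 0.05 the share was 40.6% of collagens and 44.5% of all genes. The count was 11 after quantile normalization and 10 to 14 in fits that each left out 1 array. Type VI genes were Col6a1 (adjusted p = 2.5e-06), Col6a3 (4e-04) and Col6a2 (0.003). Fibrillar genes were Col3a1 (adjusted p = 1.3e-05), Col1a1 (6.8e-05), Col5a2 (0.00025), Col5a1 (0.00032) and Col2a1 (0.031). The others were Col17a1 (adjusted p = 0.00019), Col9a3 (0.00053), Col18a1 (0.01), Col13a1 (0.045) and Col4a1 (0.046). The passage change of granulocyte lines differed between the 2 mice for Col13a1 (1.64 higher in mouse 2, log2) and Col6a1 (−1.65), with 1 mouse on each side. Neither was called with the clone number as a replicate block (adjusted p = 0.062 for Col6a1 and 0.054 for Col13a1).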

How the results depend on the processing

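Of 3697 values of named collagens under the alternatives, 3408 kept their direction and call, 280 lost the call and 9 changed sign. All 9 sign changes came when each array's fibroblast marker mean entered as a covariate: Col5a2 (−0.014) and Col5a1 (−0.12) with passage in TTF lines, Col1a1 (−0.15) in SMP against Gra lines, Col5a2 (−0.32), Col4a5 (−0.038) and Col5a1 (−0.11) in TTF lines at passage 10, and Col1a1 (0.093), Col5a1 (0.083) and Col15a1 (0.29) in Gra lines at passage 10. With that covariate the collagens called numbered 1 across origins at passage 16, 5 for the passage change between origins, 1 in T lines at passage 4, 2 in TTF, 2 in B, 3 in T and 7 in Gra lines with passage, 2 in Gra lines of mouse 1, 3 in SMP against Gra lines, 1 across origins at passage 10, and 0 in TTF and 0 in Gra lines there. In several of these comparisons the marker mean did not overlap between the sides. The fit cannot fully separate it there from origin or passage.

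When only genes above the table median in a group were tested, fewer collagens entered, and all 68 named calls that could be read were kept. The counts were 10, 5 and 7 across origins at passages 4, 16 and 10, then 5, 5, 6 and 3 in TTF, B, T and Gra lines at passage 4, 5 with passage over the origins, 5 in B and 6 in Gra lines with passage, and 6 in TTF and 6 in Gra lines at passage 10. Quantile normalization gave 1 across origins at passage 16 and 1 between the mice, moving the median of all genes by at most 0.09 (−0.09, Gra lines with passage). Averaging all probe sets of a gene gave 1 across origins at passage 16. With clone number as a replicate block the count was 3 in Gra lines of mouse 1 and 0 between the mice, and 102 of 110 named values kept their call. Only in Gra lines of both mice was r above 0 for every clone number, and it was mixed in B and T lines (all 15 lines, r −0.317 to 0.41 over 2000 genes). For Gra lines the calls lost under the block are Col15a1 and Col18a1 in mouse 2, Col5a1 and Col1a1 in mouse 1 and both between the mice. Elsewhere Col5a1 in TTF and Col18a1 in T lines with passage were lost, and no other named call was.

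Leaving out 1 array at a time gave counts from 1 to 9 across origins at passage 16, 4 to 10 in TTF and 4 to 10 in B lines at passage 4, 4 to 11 in T lines with passage, 5 to 16 in Gra lines of mouse 2, 2 to 6 in Gra lines of mouse 1, 0 to 3 between the mice and 0 to 3 in T lines at passage 10. Clone 3 of Gra lines of mouse 2 at passage 16 also changed counts of comparisons that do not use its group. Without it the count was 20 across origins at passage 4, and 10, 10, 13 and 11 in TTF, B, T and Gra lines there. It was 11 in TTF lines with passage and 11 in SMP against Gra lines. The cause of these moves was not tested. With 3 clones of 1 mouse in each group, and most collagens below the table median, small changes of dim chains may not be detectable.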
